A study of Mus musculus with 6 samples.

Results

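Goblet cells are the mucus-secreting cells of the intestinal epithelium, and 10 genes for products that they make in quantity are described here in crypts that lost the chromatin-remodelling subunit Arid1a. The genes were Muc2, Tff3, Clca1, Fcgbp, Agr2, Spink4, Zg16, Retnlb, Guca2a and Guca2b. Their probes were found by matching the RefSeq accession of each array probe to these symbols, which gave 11 of the 56605 probes on the array, 2 for Muc2 and 1 for each other gene. All 10 genes passed the filter on dim signals and are among the 13496 genes tested. All 11 probes were well above background on all 6 arrays.

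The study asked how crypts lacking Arid1a differ from crypts that keep it. RNA came from isolated crypts, the glands at the base of the intestinal epithelium, and each sample was hybridised to 1 one-colour Agilent array. The 3 knockout samples were Villin-Cre; Arid1a f/f, in which Cre recombinase driven by the Villin promoter, active across the intestinal epithelium and not in goblet cells alone, deletes the floxed Arid1a alleles. The 3 control samples were Arid1a f/f with no Cre named, so both groups carry the floxed alleles, and the strain is given as mixed in both. The labels give neither age nor region of the intestine. They do not say whether each sample is its own animal, so a p-value here covers only sample-to-sample spread. The title and description of knockout 2 and control 3 contradict their source name and genotype, and the groups follow title and description.

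Goblet cells fill granules with the gel-forming mucin Muc2, which unfolds after release into the mucus that covers the epithelium. Other secreted proteins stabilise, cross-link or process that gel, keep bacteria away from the cells or promote repair of the lining. Guanylin and uroguanylin, encoded by Guca2a and Guca2b, are peptide hormones released into the lumen, where they bind the receptor guanylate cyclase C on epithelial cells and adjust salt and water movement. They are not made by goblet cells alone, since enterocytes and colonocytes also produce them.

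Each array had 41.7% to 54.7% of its probes well above background. Values below are log2 signals minus the 75th percentile of the same array, so that 0 is that percentile, and fold changes are knockout minus control on this scale, ± SE. Arid1a itself had values of 2.20, 2.07 and 2.51 on knockout arrays 1 to 3, against 3.71, 3.47 and 4.01 on control arrays 1 to 3, so knockout 2 and control 3 resembled the groups their titles give. The sources used here do not place its 1 probe inside or outside the deleted exons. The epithelial markers Cdh1, Epcam, Krt8, Krt19, Krt20 and Vil1 were well above background on every array, and the crypt base markers Lgr5, Ascl2 and Smoc2 were too. Knockouts 1 and 2 and controls 1 and 2 shared slide 1, and knockout 3 and control 3 shared slide 2. By Xist and the Y-linked Eif2s3y, knockouts 1 and 3 and control 1 came from males and the others from females, so sex was uneven between the groups and each group held RNA of more than 1 animal. Levels of different genes are not compared with each other, because probes differ in how strongly they bind.

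All 10 secreted goblet products had negative log2 fold changes in knockout crypts, of very different size. In the fit over all genes 4 of the 10 fell, Guca2a, Zg16, Clca1 and Fcgbp, and 0 rose (adjusted p under 0.05, limma with Benjamini-Hochberg adjustment), where 14.9% of all genes tested were called, 7.62% lower and 7.28% higher. At an unadjusted p under 0.05, 8 members were lower and 0 were higher, where 18% of all genes tested were lower and 16.3% higher. The median log2 fold change of the members was -1.002, from -2.84 for Guca2a to -0.06 for Muc2, while the median of all genes tested was -0.01. For 7 members every knockout array lay below every control array, where 20.7% of all genes tested had this arrangement, 19% had the opposite one and 39.7% had either. In the fit over all kept probes, 2 of the 11 member probes fell, those of Guca2a (adjusted p = 0.0137, limma) and Clca1 (adjusted p = 0.0480, limma), where 10.3% of probes were called, 4.5% lower and 5.84% higher. In whole crypts, fewer goblet cells and less of a transcript per goblet cell cannot be told apart. With knockout 2 or control 1, 2 or 3 left out, 1 call remained, Guca2a, where 4.73% to 6.85% of all genes tested were called. With knockout 1 left out the 5 calls were Clca1, Spink4, Retnlb, Guca2a and Guca2b, while Zg16 (adjusted p = 0.0507, limma) and Fcgbp (adjusted p = 0.0572, limma) lost theirs. That fit called 29.8% of all genes tested. With knockout 3 left out the 4 calls were kept and Guca2b was added, where 10.8% of all genes tested were called. Without both arrays with contradicting labels 0 members were called in limma, with 4 lower at an unadjusted p under 0.05, where 2.37% of all genes tested were called. With sex as a block 1 member was called, Guca2a, where 9.92% of all genes tested were called.

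**Figure D1:**
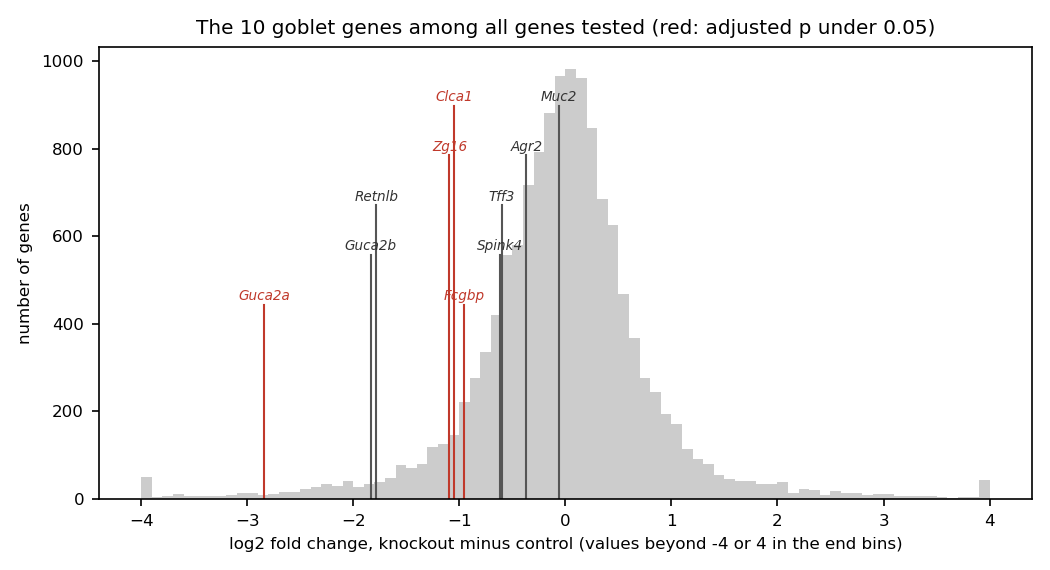
Histogram of the log2 fold change, knockout minus control, of the 13496 genes tested (number of genes per bin), with a line at the value of each of the 10 goblet genes. All 10 lie below 0, from Guca2a at -2.84 to Muc2 at -0.06, and the red lines are the 4 with an adjusted p under 0.05.

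Among the building blocks of the mucus gel, no difference was detectable in the mucin itself, while Fcgbp, Clca1 and Zg16 fell. Muc2, the gel-forming mucin, had values of 4.72, 5.12 and 5.80 on knockout arrays 1 to 3, against 5.67, 5.35 and 4.80 on control arrays 1 to 3. These ranges overlap widely, with the highest value on knockout 3 and the lowest on knockout 1. The log2 fold change of Muc2 was -0.06 ± 0.34 (adjusted p = 0.914, limma), with a 95% interval from -0.87 to 0.75, which leaves room for a sizeable change in either direction. The difference in Muc2 was -0.59 on slide 1 and 1.001 on slide 2. The dimmer Muc2 probe gave -2.01, -2.23 and -1.08 on knockout arrays 1 to 3, against -2.25, -1.89 and -2.27 on control arrays 1 to 3. On this probe too the groups overlapped and knockout 3 was highest, with a log2 fold change of 0.36 ± 0.32 (adjusted p = 0.466, limma over all kept probes).

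Fcgbp, a large mucus protein that associates with Muc2, fell in the knockout. Its values were 6.55, 6.33 and 7.14 on knockout arrays 1 to 3, against 7.49, 7.57 and 7.83 on control arrays 1 to 3, and the groups did not overlap. The log2 fold change of Fcgbp was -0.96 ± 0.24, a 1.94-fold decrease (adjusted p = 0.0448, limma). Clca1, a secreted metalloprotease that processes Muc2 in the mucus, had values of 7.06, 6.69 and 7.39 on knockout arrays 1 to 3, against 7.76, 8.14 and 8.39 on control arrays 1 to 3. Clca1 was thus lower on every knockout array, by -1.05 ± 0.25 or 2.07-fold (adjusted p = 0.0375, limma), with nearly the same difference on slide 1, -1.07, and slide 2, -0.999.

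Zg16, a lectin of the mucus that binds the peptidoglycan of Gram-positive bacteria, also fell. It had 7.98, 7.62 and 8.62 on knockout arrays 1 to 3, against 9.11, 9.13 and 9.26 on control arrays 1 to 3. The control values of Zg16 lay close together (SD 0.0804, n = 3) and the knockout values were more spread (SD 0.507, n = 3), with every knockout array lower. The log2 fold change of Zg16 was -1.09 ± 0.26, 2.13-fold (adjusted p = 0.0397, limma), with -1.32 on slide 1 and -0.64 on slide 2. Tff3, the intestinal trefoil peptide that protects and helps to repair the epithelium, had 7.73, 7.83 and 8.13 on knockout arrays 1 to 3, against 8.63, 8.46 and 8.38 on control arrays 1 to 3. The Tff3 groups did not overlap, yet the difference of -0.60 ± 0.17 did not pass (adjusted p = 0.0620, limma). The Tff3 difference was -0.77 on slide 1 and -0.26 on slide 2.

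**Figure D2:**
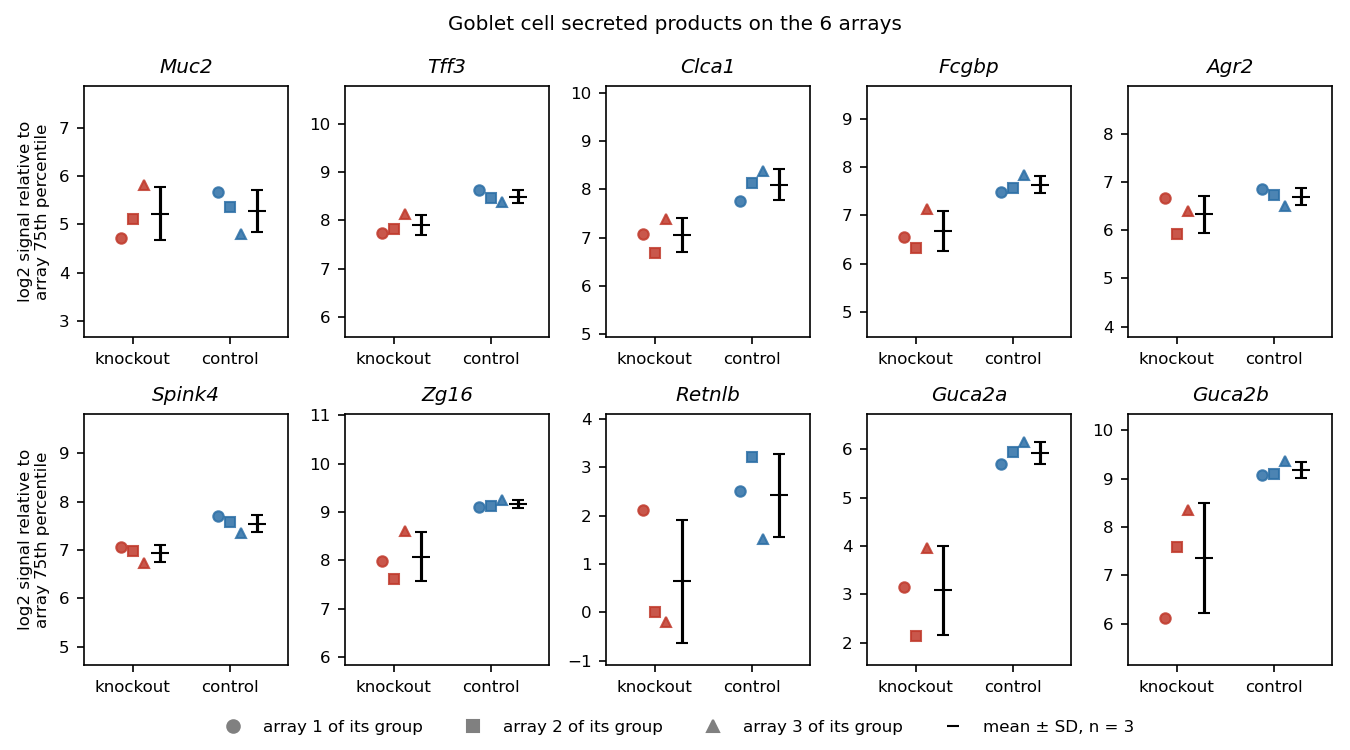
Log2 signal minus that array's 75th percentile for each gene on the 3 knockout arrays (red, left) and the 3 control arrays (blue, right), with the group mean ± SD beside the points (n = 3); every panel spans the same log2 range but is centred on its own gene. Knockout arrays lie below all control arrays for Tff3, Clca1, Fcgbp, Spink4, Zg16, Guca2a and Guca2b, and the groups overlap for Muc2, Agr2 and Retnlb.

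Of the products that fold mucus proteins or accompany them, none passed the test. Agr2, a protein disulphide isomerase of the endoplasmic reticulum that is needed for Muc2 production in mice, had 6.67, 5.92 and 6.40 on knockout arrays 1 to 3, against 6.85, 6.73 and 6.51 on control arrays 1 to 3. Knockout 1 lay inside the control range and the log2 fold change of Agr2 was -0.37 ± 0.23 (adjusted p = 0.290, limma), with a 95% interval from -0.91 to 0.18. Spink4, a Kazal-type protease inhibitor of goblet cells, had 7.07, 6.99 and 6.74 on knockout arrays 1 to 3, against 7.70, 7.59 and 7.36 on control arrays 1 to 3. Every knockout array was lower for Spink4, with the smallest spread among the knockout arrays of all members (SD 0.170, n = 3) and the same difference of -0.62 on each slide. The fit gave -0.62 ± 0.17 for Spink4 (adjusted p = 0.0575, limma), with 0.0310 when slide entered as a block.

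Retnlb, a resistin-like secreted protein that is bactericidal and is induced by bacteria and by type 2 cytokines, was the most variable member. Its values were 2.11, 0.00 and -0.20 on knockout arrays 1 to 3, against 2.51, 3.22 and 1.52 on control arrays 1 to 3. Knockouts 2 and 3 lay below all controls, while knockout 1 lay between control 3 and control 1. The log2 fold change of Retnlb was -1.78 ± 0.70 (adjusted p = 0.128, limma). Without knockout 1 it was -2.52 (adjusted p = 0.0176, limma), in a fit that called 29.8% of all genes tested.

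Guca2a had the largest decrease of the 10 genes. Guca2a, the precursor of guanylin, had 3.16, 2.13 and 3.97 on knockout arrays 1 to 3, against 5.70, 5.95 and 6.15 on control arrays 1 to 3. The groups were far apart, with knockout 3, the highest knockout array, still well below control 1, the lowest control array. The log2 fold change of Guca2a was -2.84 ± 0.44, a 7.17-fold decrease (adjusted p = 0.0105, limma), with a 95% interval from -3.90 to -1.79. It was -3.17 on slide 1 and -2.18 on slide 2, and -2.26 without both arrays with contradicting labels (adjusted p = 0.0565, limma). By absolute fold change Guca2a ranked 256 among the 13496 genes tested.

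Guca2b, the precursor of uroguanylin, was lower on every knockout array but did not pass. It had 6.11, 7.58 and 8.35 on knockout arrays 1 to 3, against 9.08, 9.10 and 9.37 on control arrays 1 to 3. Control values of Guca2b lay close together (SD 0.165, n = 3), while knockout values were spread (SD 1.14, n = 3), with knockout 1 lowest. The log2 fold change of Guca2b was -1.83 ± 0.53 (adjusted p = 0.0621, limma). Slide 1 gave a Guca2b difference of -2.24 and slide 2 of -1.02, and blocking on slide gave an adjusted p of 0.0463. Guca2b passed with knockout 1 left out, at -1.22 (adjusted p = 0.0235, limma), and with knockout 3 left out, at -2.34 (adjusted p = 0.0251, limma). The difference between the changes of Guca2a and Guca2b, -1.01, was within the spread of the arrays (exact two-sided permutation p = 0.400, n = 3 per group, smallest possible 0.10).

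Guca2a and Guca2b are neighbours on chromosome 4 in the RefSeq gene table, with no other listed gene between them. On the Guca2a side the next gene, Foxj3, differed by 0.56 (adjusted p = 0.148, limma) and the one after it, Frg2f1, by 0.32 (adjusted p = 0.416, limma), so neither passed. Both were named for their position, after values were seen. On the Guca2b side the neighbours Gm35761, Gm35957 and Hivep3 were not among the genes tested. The promoter regions of the guanylin genes, the 2 members with the most negative estimates, are shown with that of Muc2, which did not differ detectably. Each is the run of 250 bases that ends just before the transcription start, 5′ to 3′ on the strand of its gene, from RefSeq on GRCm38.p6, and 5 of the 10 members had such an entry.
Guca2a, chr4:119637482-119637731, plus strand: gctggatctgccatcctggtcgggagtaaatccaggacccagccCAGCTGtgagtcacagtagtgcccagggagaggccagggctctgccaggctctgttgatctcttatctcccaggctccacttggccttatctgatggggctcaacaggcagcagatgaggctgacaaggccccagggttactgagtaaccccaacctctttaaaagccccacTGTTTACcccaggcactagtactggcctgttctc
Guca2b, chr4:119658946-119659195, minus strand: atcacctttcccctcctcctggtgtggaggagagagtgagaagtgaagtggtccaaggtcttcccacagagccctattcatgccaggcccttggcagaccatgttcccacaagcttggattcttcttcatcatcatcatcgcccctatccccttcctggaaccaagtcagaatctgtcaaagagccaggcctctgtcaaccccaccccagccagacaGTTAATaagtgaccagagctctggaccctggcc
Muc2, chr7:141690090-141690339, plus strand: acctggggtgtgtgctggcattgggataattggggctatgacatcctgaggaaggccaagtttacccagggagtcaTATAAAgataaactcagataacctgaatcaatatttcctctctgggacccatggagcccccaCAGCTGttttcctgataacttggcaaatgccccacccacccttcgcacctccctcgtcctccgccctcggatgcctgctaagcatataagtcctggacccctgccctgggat
Capitals mark matches, on either strand, to 5 motifs. The TATA box was searched as TATAAA. The HNF1 half-site was searched as GTTAAT. The site for CDX factors was searched as CATAAA. The site for FOXA factors was searched as TGTTTAC. The E-box was searched as CAGCTG, which reads the same on both strands.

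Guca2a held the FOXA letters from base -34 to -28 and the E-box from -206 to -201, counted back from the start. Guca2b held the HNF1 half-site from -33 to -28. Muc2 held the letters TATAAA from -174 to -169, not shown to act as a TATA box, and the E-box from -112 to -107. Among 27025 promoters of the same length, 3.09% held the FOXA letters, 6.52% the HNF1 half-site, 12.8% the E-box, 13.0% the TATA box and 11.1% the CDX letters. The guanylin promoters shared none of the 5 motifs. These matches describe letters only and were not tested for binding.

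**Figure D3:**
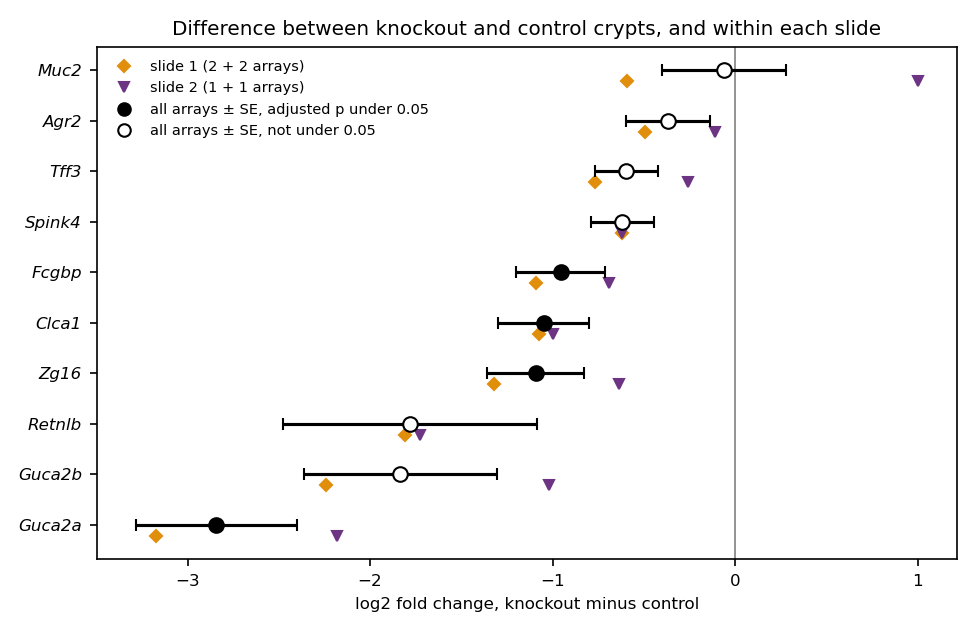
Log2 fold change, knockout minus control, of each gene over all arrays (circles, bars ± SE, n = 3 per group, filled where the adjusted p is under 0.05), with the difference within slide 1 (diamonds) and within slide 2 (triangles). On slide 1 all 10 genes were below 0, and on slide 2 all but Muc2, which was at 1.001.

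The members did not vary together as 1 block. On slide 1 all 10 were lower in the knockout and on slide 2, with 1 array per group, 9 were. Relative to the control mean of each gene, the median member stood at -0.90, -1.36 and -0.63 on knockout arrays 1 to 3, against 0.02, 0.03 and -0.01 on control arrays 1 to 3. For 9 of the 10 members the SD was larger among knockout than among control arrays, Spink4 being the exception. This was also seen outside the members, as for Fabp1 (SD 0.469 in knockout, 0.121 in control) and Lyz1 (1.29 and 0.119). Krt19 went the other way (0.184 and 0.325). The share over all genes was not counted, so the larger spread is not given as particular to the members. As a description over the 6 arrays, with no test, the deviations from the group means of the 4 called genes ran in parallel. Their Pearson r lay between 0.813 for Clca1 with Zg16 and 0.968 for Zg16 with Guca2a, all 4 being lowest on knockout 2 and highest on knockout 3 among the knockout arrays. Muc2 followed Tff3 (r = 0.965), and the deviations of Spink4 ran against those of Fcgbp (r = -0.835). With 6 arrays that share slides and scaling, such values are imprecise.

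Members were also set against Muc2 within each array, and no difference from Muc2 passed the exact test. Guca2a minus Muc2 was -1.56, -2.99 and -1.84 on knockout arrays 1 to 3, against 0.03, 0.59 and 1.34 on control arrays 1 to 3. Guca2b minus Muc2 gave 1.39, 2.46 and 2.55 on knockout arrays 1 to 3, against 3.41, 3.75 and 4.57 on control arrays 1 to 3. For Zg16 minus Muc2 the values were 3.26, 2.50 and 2.82 on knockout arrays 1 to 3, against 3.44, 3.78 and 4.45 on control arrays 1 to 3. In these 3 comparisons the groups did not overlap, and in the 6 other comparisons with Muc2 they did. Each of the 3 had an exact two-sided permutation p of 0.10, the smallest that 3 arrays against 3 allow, and an adjusted p of 0.333 over the 10 pairs compared. How many of all genes lay apart after Muc2 was subtracted was not counted. Before that subtraction 20.7% of all genes tested had every knockout array below every control array. Limma on the same differences called 3 of 9 members, Guca2a, Guca2b and Retnlb, where 6.65% of all genes were called, 3.44% lower and 3.21% higher, but every gene in that fit carries the same Muc2 values, so its p-values are too small.

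The list of transcription factors that promote or restrain goblet cell fate included several that fell. Hes1, which restrains that fate, was not called, at -0.59 ± 0.19 (adjusted p = 0.0792, limma). Of 10 measured, 4 fell and 0 rose, against the 7.62% of all genes called lower, and the median log2 fold change was -0.69. Foxa2 had -0.86, -0.85 and -1.76 on knockout arrays 1 to 3, against 1.49, 0.89 and 0.48 on control arrays 1 to 3. This forkhead factor of secretory differentiation fell by 2.11 ± 0.35 on the log2 scale (adjusted p = 0.0130, limma). Its relative Foxa3 changed by -1.08 ± 0.23 (adjusted p = 0.0280, limma). Creb3l4, a membrane-bound factor of the secretory pathway, changed by -1.50 ± 0.20 (adjusted p = 0.00599, limma).

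Atoh1, the factor that commits progenitors to the secretory lineage, had 0.76, 0.42 and 0.66 on knockout arrays 1 to 3, against 1.84, 1.32 and 1.75 on control arrays 1 to 3. It was lower on every knockout array, by -1.02 ± 0.20 (adjusted p = 0.0207, limma). Spdef, which acts downstream of Atoh1 in goblet cell maturation, had 3.18, 2.98 and 2.95 on knockout arrays 1 to 3, against 3.34, 3.14 and 3.31 on control arrays 1 to 3. The Spdef groups overlapped narrowly and its log2 fold change of -0.23 ± 0.15 did not pass (adjusted p = 0.321, limma). Whether the changes of Atoh1 and Spdef differ was not tested. The number of factors that fell was 2 to 5 with single arrays left out, being 2 without knockout 2 or control 1, 2 or 3. In those fits 4.73% to 6.85% of all genes tested were called. Without knockout 1, 5 factors fell, where 29.8% of all genes tested were called. With knockout 2 and control 3 both left out 0 factors fell in limma, with 4 lower at an unadjusted p under 0.05. That fit called 2.37% of all genes tested.

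Among genes for folding, glycosylation, granule release and other goblet products, more fell than rose. Of 21 measured, 6 fell and 1 rose, against 7.62% of all genes called lower and 7.28% higher, with a median of -0.59. At an unadjusted p under 0.05 (limma), 12 were lower and 4 higher, where 18% of all genes tested were lower and 16.3% higher. The counts of higher genes are thus near the shares over all genes. Klk1, a kallikrein protease, had 0.21, -1.58 and -0.30 on knockout arrays 1 to 3, against 3.50, 3.38 and 3.71 on control arrays 1 to 3, a change of -4.09 ± 0.44 (adjusted p = 0.00309, limma). That is a larger decrease than the estimate for any of the 10 secreted products. Best2, a bestrophin anion channel of colonic goblet cells, changed by -2.25 ± 0.47 (adjusted p = 0.0256, limma), with 1 of 3 knockout arrays well above background. Atp2c2, a Golgi calcium pump, changed by -1.23 ± 0.17, the tryptase Tpsg1 by -1.11 ± 0.24, Rep15, a partner of the trafficking GTPase Rab15, by -1.06 ± 0.17, and Galnt12, which starts mucin O-glycans, by -0.98 ± 0.21.

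The gene of this list that rose was Tgm3, a transglutaminase that cross-links proteins, including the Muc2 network in the colon of mice. It had 1.53, 2.25 and 2.21 on knockout arrays 1 to 3, against 0.79, 0.64 and 0.75 on control arrays 1 to 3, a log2 fold change of 1.27 ± 0.23 (adjusted p = 0.0162, limma). Without knockout 2 or control 1, 2 or 3, 0 genes of the list rose in limma, with 1 to 3 higher at an unadjusted p under 0.05, so the call of Tgm3 was lost there. Between 2 and 9 genes of the list fell with single arrays left out: 9 without knockout 1, 4 without knockout 2, 2 without control 1 and 3 without control 2 or 3. The share of all genes tested that was called also varied. It was 29.8% without knockout 1, 6.85% without knockout 2, 4.73% without control 1, 5.85% without control 2 and 6.11% without control 3. Without both arrays with contradicting labels 1 fell and 0 rose, with 8 lower and 1 higher at an unadjusted p under 0.05. That fit called 2.37% of all genes tested.

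**Figure D4:**
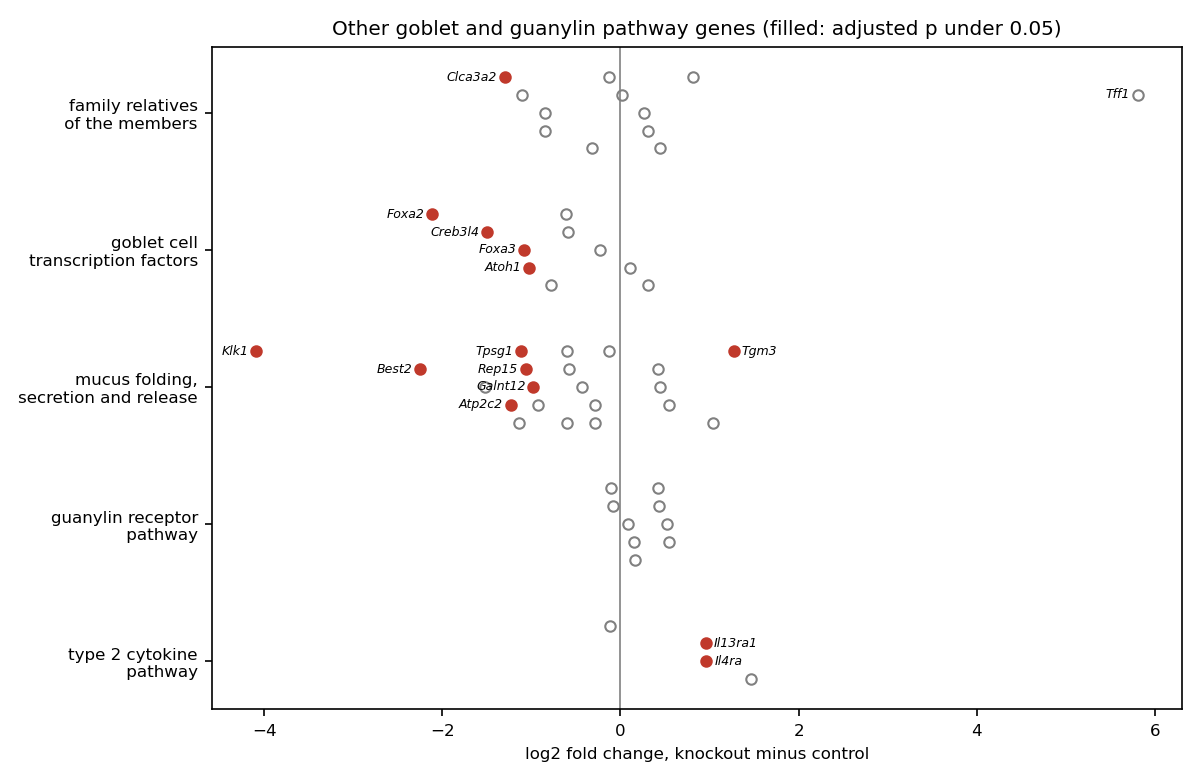
Log2 fold change, knockout minus control, of 56 measured genes in 5 lists around the secreted products; each circle is a gene, vertical offsets within a list only separate the points, and filled circles have an adjusted p under 0.05. Decreases are seen among transcription factors (4 of 10) and secretion genes (6 of 21), and no filled circle among the 9 genes of the guanylin receptor pathway.

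Relatives of the members by gene family did not move in 1 direction. Of 12 measured, 1 fell and 0 rose, a share near the 7.62% of all genes called lower, with 6 positive and 6 negative log2 fold changes. The one that fell was Clca3a2, of the same family as Clca1, by 1.30 ± 0.30 on the log2 scale (adjusted p = 0.0355, limma). The Clca genes are close paralogs, and a probe may bind transcripts of more than 1 of them. With sex as a block, or without knockout 3, control 1 or control 2, 0 relatives fell in limma, with 1 or 2 lower at an unadjusted p under 0.05.

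Tff1, the trefoil peptide of the stomach, was picked out with its values already known. It had -3.02, 5.71 and -1.46 on knockout arrays 1 to 3, against -5.32, -5.28 and -5.59 on control arrays 1 to 3. All 3 knockout arrays and 0 control arrays were well above background, and knockout 2 stood far above the other two. Tff1 passed the filter on dim signals through the knockout arrays alone. Its difference was not called (adjusted p = 0.105, limma), a result that rests on control values not well above background. Against the lowest signal counted as well above background on each control array, the knockout level of Tff1 was at least 18.2-fold higher. This limit was set largely by knockout 2: it was 2.90-fold without knockout 2, 59.8-fold without knockout 1 and 34.8-fold without knockout 3.

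Genes of the guanylin receptor pathway gave a count near that of all genes, of which 14.9% were called. Of 9 measured genes of the receptor pathway, 0 rose and 0 fell in limma, with 1 higher and 0 lower at an unadjusted p under 0.05. Gucy2c, which encodes the receptor guanylate cyclase C, had 3.22, 3.72 and 3.71 on knockout arrays 1 to 3, against 3.49, 3.50 and 3.89 on control arrays 1 to 3. Its groups overlapped and its log2 fold change was -0.08 ± 0.21 (adjusted p = 0.806, limma). The receptor list's median of 0.16 turned to -0.09 when arrays were scaled to their median instead of the 75th percentile.

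Receptors of type 2 cytokines, which induce Retnlb and Clca1, were higher. Of 4 measured genes 2 rose and 0 fell, where 7.28% of all genes were called higher. Il4ra, a receptor chain shared by interleukins 4 and 13, rose by 0.96 ± 0.23 (adjusted p = 0.0393, limma) and Il13ra1 by 0.96 ± 0.22 (adjusted p = 0.0363, limma). The cytokine genes Il4, Il13 and Il25 did not pass the filter on dim signals. Without both arrays with contradicting labels 0 of the 4 rose in limma, with 2 higher at an unadjusted p under 0.05, and without knockout 2, knockout 3, control 1 or control 3 it was 0 as well, with 3 higher at an unadjusted p under 0.05.

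Markers of several other crypt cells moved alongside the goblet genes, and their part in the results above was not tested. Of all genes tested, 7.62% were called lower and 7.28% higher. The summed signal of 5 Paneth cell markers (in units of the 75th percentile signal) was 213 to 1074 on knockout arrays and 1771 to 1922 on control arrays, with Ang4, Mmp7 and Itln1 called lower, 3 of 5. For 3 crypt base stem cell markers the sum was 2.89 to 17.3 on knockout arrays and 35.4 to 48.1 on control arrays, with 1 of 3 called lower. Over 6 enterocyte markers it was 1901 to 3763 on knockout arrays and 2236 to 2763 on control arrays, with 0 of 6 called. Colon epithelium markers summed to 1.20 to 3.52 on knockout arrays and 2.53 to 4.38 on control arrays, with 2 of 5 called lower, among them Aqp8, which was well above background on 1 of 3 knockout arrays.

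Immune, stromal, pancreatic and rarer epithelial markers were called in both directions, where 14.9% of all genes tested were called. The T cell markers summed to 46.1 to 121 on knockout arrays and 34.5 to 121 on control arrays, with 0 of 6 called. Enteroendocrine markers summed to 159 to 273 on knockout arrays and 156 to 173 on control arrays, with 1 of 5 called higher, Sct at 0.996 ± 0.22. The other enteroendocrine markers were Chga at -0.79, Neurod1 at -0.26, Chgb at -0.21 and Gip at 0.04, and the list's median log2 fold change was -0.21. The 4 measured tuft cell markers were not called (0 of 4). All 5 tuft cell markers on the array, 1 of them too dim for the filter, summed to 2.57 to 3.46 on knockout arrays and 3.12 to 4.74 on control arrays. The muscle and fibroblast marker Acta2 was called higher, at 0.91 ± 0.24, while Col1a1, Col3a1, Des and Myh11 were not well above background on any array. For B and plasma cells Ms4a1 and Mzb1, for macrophages Adgre1 and C1qa, and for endothelium Cdh5 and Kdr were not well above background on any array. Of 3 measured macrophage markers Lyz2 was called lower, at -3.43 ± 0.76, and Cd68 higher, at 0.87 ± 0.16. The third, Csf1r, was not called, at 0.27 ± 0.20 (adjusted p = 0.374, limma). Of 4 measured markers of exocrine pancreas 1 was called lower, Cpa1, with 0 of 3 knockout and 3 of 3 control arrays well above background. Cpa1 passed the filter on dim signals through the control arrays alone, so only a limit on its decrease is given. It was at least 4.42-fold lower in the knockout, a limit that was 2.66-fold without control 1 and 7.38-fold without control 3.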

How the data were processed

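Per the labels, total RNA of isolated crypts was labelled with Cy3, 1 array per sample. The deposited scanner files hold Feature Extraction spot intensity on a linear scale. Their headers name version 12.0.3.1, while the submitters' processing notes name 11.5.1.1. The scanner software's processed intensity was used, with its flags for outliers, saturation (0 spots) and signal well above background. In the table deposited by the authors the values are log2, and they matched the 75th percentile scale centred on each probe's median and served as an alternative.

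Control and outlier-flagged spots were left out, spots of a probe averaged, and the log2 signal taken minus the array's 75th percentile. It corresponded to signals of 292, 206 and 205 on knockouts 1 to 3, against 295, 279 and 290 on controls 1 to 3. Precision is limited by the number of arrays. Names came from accessions through RefSeq (GRCm38.p6) for 33767 of 56605 probes, and the array's own design is on another build. Probes well above background on at least 3 arrays were kept (26746), the brightest per gene. Limma 3.58.1 (R 4.3.3) was fitted with group as the only term. The fit was tested on simulated data.

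The members, lists and alternatives were chosen with earlier results of these data known. All members were named, and from each list up to 8 called genes plus Gucy2c, Spdef and Atoh1. Tff1, Hes1, Foxj3, Frg2f1 and the named cell markers fall outside this rule and were picked with values known. The exact permutation test against Muc2 was added after seeing the data. Deviations from group means of same-numbered arrays correlated at 0.246, 0.0797 and 0.352, against -0.281 to 0.0205 for differently numbered arrays. This is a hint from the data only, so the main fit did not take the numbers as pairs, and a replicate block was an alternative. Alternatives were the labels, blocks, slide, background correction, scaling, filter, probe choice, variance model, array weights, deposited table, thresholds and each array left out.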

Additional observations from a re-analysis of the deposited data

How the results depend on the processing

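Of the 13496 genes, 2011 were called, and 4 of 10 members, 2 of 11 member probes, 3 of 9 members relative to Muc2 and 14 of 56 companion genes. Grouping by source name and genotype gave 0 calls in all 5 counts in limma (123 genes higher and 84 lower at an unadjusted p under 0.05), and turned the log2 fold changes of Clca1 to 0.085, Fcgbp to 0.044, Agr2 to 0.025 and Zg16 to 0.000298. Without both arrays with contradicting labels 320 genes, 0 members, 0 probes, 0 relative to Muc2 and 2 companions were called. Slide 1 alone gave 689 genes, 2 members, 1 probe and 3 companions. With a sex block the counts were 1339 genes, 1 member, 1 probe and 1 relative to Muc2. With the replicate block 6 members, 5 probes, 1 relative to Muc2 and 22 companions were called, where 20.2% of all genes tested were called. Every array correlated best with its own number, a hint from the data only. The slide block gave 6 members and 5 probes, with 18.5% of all genes tested called.

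Without a filter on dim probes the counts were 697 genes, 1 member, 1 probe, 1 relative to Muc2 and 4 companions. Array weights gave 4766 genes, 9 members, 8 probes, 6 relative to Muc2 and 29 companions. Normexp gave 7 members and 7 probes, with 16.8% of all genes tested called. Quantile normalization gave 7 members and 5 probes, with 15.3% called. The array median gave 5 probes, with 14.4% called, and the filter on all arrays 4 probes, with 15.7% called. A trended robust variance gave 7 members and 4 probes, with 16.9% of all genes tested called. At an adjusted p under 0.01 the counts were 513 genes, 0 members, 0 probes, 1 relative to Muc2 and 3 companions, and under 0.10 they were 3445 genes, 7 members, 7 probes and 24 companions. The exact permutation test, added after seeing the data, called 0 relative to Muc2, since 3 arrays against 3 cannot reach the threshold. Leaving out 1 array gave 638 to 4023 genes, 1 to 5 members, 0 to 4 probes, 1 to 2 relative to Muc2 and 4 to 25 companions. Muc2 turned to 0.15 with the mean of its probes, and ranged from -0.35 without knockout 3 to 0.19 without knockout 1 as single arrays were left out, being 0.14 without control 1. Scaling to the array median moved the median gene to -0.26 and the split to 560 higher and 1389 lower, against 982 and 1029. Guca2a lost its call only by source name (-0.17), without the contradicting arrays and under 0.01. For the other shifts the cause was not tested.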
